A study of Mus musculus with 14 samples.

Results

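The 10 genes described here encode the transcription factor CREB and its closest relatives, the CRTC and CREBBP coactivators that CREB recruits, and the SIK kinases that hold the CRTC proteins in check. They were taken by symbol from the deposited table of 24421 genes, and all 10 were found: Creb1, Crem, Atf1, Crtc1, Crtc2, Crtc3, Crebbp, Sik1, Sik2 and Sik3. RNA of the hippocampus of 7 mice labelled LPAR2-/- and 7 wild-type (WT) mice was sequenced after depletion of ribosomal RNA, with 1 library per mouse. All 14 mice were male, naive and of the strain given as 129.C57Bl6. The LPAR2-/- mice lack the later portion of exon 2 of Lpar2, the gene of a receptor for lysophosphatidic acid, in all their cells. Knockouts were homozygous and came from a colony of their own, and the controls, of C57BL/6 and 129/SvJ descent, came from another, so that genotype and colony cannot be told apart. By label the mice were 10 to 12 weeks old, whereas the series' description calls them middle-aged or older, so their age is not known. The tissue is named hippocampus in the labels and methods and dentate gyrus in the study's results.

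CREB binds the cAMP response element (CRE) in the promoters of genes that neurons switch on after activity. The following routes make it active, written here as background: kinases such as PKA and CaMKIV phosphorylate CREB, which then binds the acetyltransferase CREBBP, and calcineurin frees CRTC proteins, which enter the nucleus and bind CREB. SIK kinases phosphorylate the CRTC proteins and keep them in the cytoplasm, while PKA inhibits SIK. Crem and Sik1 are themselves transcribed through CREB, and both feed back on it. In the hippocampus, CREB and CRTC1 are known for their part in long-term memory. Much of this regulation acts on phosphorylation and location of proteins, which RNA counts do not measure.

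Promoter sequences from RefSeq (GRCm38.p6) were found for 7 of the 10 genes, but not for Crem, Sik1 and Crtc2. They were searched for TGACG, the core of the CRE, on both strands over the 250 bases before the start. TGACG was present before Sik3, with 3 matches that begin 133, 116 and 57 bases before the start, and before Atf1, with 1 match that begins 90 bases before it. The windows of Creb1, Crtc1, Crtc3, Crebbp and Sik2 held no match, and the full palindrome TGACGTCA, which contains TGACG on each strand, was in none of the 7. Of 32851 such windows of the RefSeq table, 17.8% held TGACG and 1.55% held TGACGTCA. The stretches outside exons annotated by GENCODE are printed for Creb1, whose counts differed between the genotypes, and for Sik3 and Atf1, which carry matches, from 5′ to 3′ on the strand of the gene with TGACG in capitals. A match here is a description of letters and not a binding site.
Creb1, chr1:64532554-64532644, plus strand: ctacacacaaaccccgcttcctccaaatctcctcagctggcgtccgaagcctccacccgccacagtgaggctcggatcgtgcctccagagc
Sik3, chr9:46012691-46012819, plus strand: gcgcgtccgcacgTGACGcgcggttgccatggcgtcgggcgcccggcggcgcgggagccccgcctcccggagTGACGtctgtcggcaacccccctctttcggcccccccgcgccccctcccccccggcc
Atf1, chr15:100227609-100227818, plus strand: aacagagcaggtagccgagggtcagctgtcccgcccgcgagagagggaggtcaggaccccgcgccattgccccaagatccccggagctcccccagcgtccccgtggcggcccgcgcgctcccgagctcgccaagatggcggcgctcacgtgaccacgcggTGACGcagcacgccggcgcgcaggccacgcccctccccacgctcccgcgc
The Creb1 stretch covers the bases from 250 to 160 before the start, and its GC content is 62.6%. The Sik3 stretch, at 81.4% GC, holds 2 of the 3 matches of that window, since the match 133 bases before the start runs into an exon of the neighbouring gene. The Atf1 stretch has a GC content of 75.2%.

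As a check of the labels, Lpar2 was counted at 9.80, 8.20, 10.1, 8.36, 12.3, 8.60 and 9.47 CPM (the counts of a gene scaled to the size of its library) in LPAR2-/- mice 1 to 7 and at 1.51, 2.73, 1.93, 2.75, 3.23, 2.79 and 1.57 CPM in WT mice 1 to 7. The libraries labelled LPAR2-/- thus held more Lpar2 RNA, with a log2 fold change of 2.01 (edgeR quasi-likelihood test, Benjamini-Hochberg adjusted p = 8.22e-07). The count covers the whole gene and does not separate the deleted part of exon 2, and it goes against what a loss of the transcript would give, so every group below is named by its label. Between 15434620 and 23258949 reads were counted on genes per library labelled LPAR2-/- and between 16373410 and 21992980 per WT library. The test covered 14897 genes, of which 1009 passed an adjusted p of 0.05 (6.77%), 494 of them higher and 515 lower, and 22.4% had an unadjusted p under 0.05. None of the 10 markers of hippocampal neurons, 6 of astrocytes, 6 of oligodendrocytes and 6 of microglia passed in edgeR (1 neuronal and 1 microglial marker had an unadjusted p under 0.05, both shares below the 22.4% of all genes, and DESeq2 and limma-voom called none). Of the 6 endothelial markers, 1 passed, Slco1c1, which was lower (−0.28, edgeR adjusted p = 0.023). The summed neuronal markers ranged from 5730 to 6870 CPM under the LPAR2-/- label and from 5700 to 6980 CPM in WT. An even sum does not mean that each marker was even. Neurod6 ranged from 47.5 to 171 CPM under the LPAR2-/- label and from 77.5 to 184 CPM in WT. For Fibcd1 the ranges were 19.7 to 46.3 and 25.6 to 154 CPM. The 6 meningeal markers summed to between 41.1 and 214 CPM (median 122) under the LPAR2-/- label and between 31.0 and 136 CPM (median 52.5) in WT, with a median log2 fold change of 1.16, and of them 1, Lum, passed (log2 fold change 0.54, edgeR adjusted p = 0.0132) and 5 had an unadjusted p under 0.05, beside 22.4% of all genes. All 6 striatal markers had a log2 fold change above 0, as did 7613 of the 14897 genes tested, without passing in edgeR (4 with an unadjusted p under 0.05, beside 22.4% of all genes, 1 called by DESeq2 and 0 by limma-voom), and summed to 67.1 to 77.8 CPM under the LPAR2-/- label and 57.7 to 68.2 CPM in WT. The 6 choroid plexus markers summed to 287 CPM in LPAR2-/- mouse 2 and to between 26.0 and 51.6 CPM in the other 13 mice. Of the 3 that were tested 0 passed in edgeR or limma-voom, 1 was called by DESeq2 and 2 had an unadjusted p under 0.05. The oligodendrocyte markers summed to 3880 CPM in LPAR2-/- mouse 3 and to between 969 and 2030 CPM in the others. The part of these other tissues and cell types in the differences below was not tested. All values come from bulk tissue, in which fewer cells of a type and less RNA per cell cannot be told apart.

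Levels were compared between genes as CPM per kilobase of gene length, in WT mice. Crtc1, the CRTC protein of neurons, stood highest at 81.9 ± 5.92 CPM per kb (SD, n = 7), followed by Sik3 at 25.6 ± 1.13, Crtc2 at 16.7 ± 0.706, Crtc3 at 9.0 ± 0.587, Creb1 at 8.02 ± 0.725 and Crebbp at 7.46 ± 0.635. Atf1 at 4.61 ± 0.410, Sik1 at 4.55 ± 1.16, Sik2 at 4.04 ± 0.885 and Crem at 3.54 ± 0.301 CPM per kb were lowest. The ranges over mice overlapped between the neighbours Crtc3 and Creb1, Creb1 and Crebbp, Atf1 and Sik1, Sik1 and Sik2, and Sik2 and Crem, and these neighbours in the order are not separated by their spread. The ranges of Crtc1 and Sik3, of Sik3 and Crtc2, of Crtc2 and Crtc3, and of Crebbp and Atf1 did not overlap. On this scale Crtc1 made up 76.1% ± 0.838 of the CRTC RNA, Sik3 74.9% ± 2.30 of the SIK RNA and Creb1 49.6% ± 1.45 of the CREB family RNA in WT (SD, n = 7). Among WT mice the coefficient of variation was highest for Sik1 (25.5%) and Sik2 (21.9%) and lowest for Crtc2 (4.22%).

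Of the 10 genes, Creb1, Crem and Sik1 were lower in the mice labelled LPAR2-/- at an adjusted p under 0.05, beside 3.46% of all genes tested, and none was higher, beside 3.32% of all genes tested. The log2 fold change was below 0 for 8 of 10 genes, beside 48.9% of all genes tested, with a median of −0.12 against 0.003 over all genes. The groups' ranges overlapped for each of the 10, whereas they did not overlap for 1.77% of all genes tested. CREB itself (Creb1), its relative Crem and the inducible kinase Sik1 were thus the genes called lower. The call does not set them apart from all the others. Sik3 also had an interval below 0 (−0.222 to −0.0348, edgeR adjusted p = 0.0953), and the ratios of Sik1 to Sik2 and to Sik3 did not pass. Atf1, Crtc2 and Crtc3 lay within 0.02 of 0 on the log2 scale with all mice included. In the leave-one-out fits these 3 ranged from −0.0424 to 0.0687, from −0.0315 to 0.0439 and from −0.0422 to 0.0277, and without LPAR2-/- mice 6 and 7 they were −0.09, −0.05 and −0.08, with no call. DESeq2 also called 3 genes and limma-voom called 2. With each mouse left out in turn, Crem passed in 14 of 14 fits, Creb1 in 6 and Sik1 in 2, so that between 1 and 3 of the 10 genes passed. Without LPAR2-/- mice 6 and 7 together, which had the lowest Sik3 and the highest Crtc3 of all mice, 2 of the 10 genes, Creb1 and Crem, passed, beside 6.45% of all genes, and Sik1 had a log2 fold change of −0.55 (edgeR adjusted p = 0.0637).

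**Figure D1:**
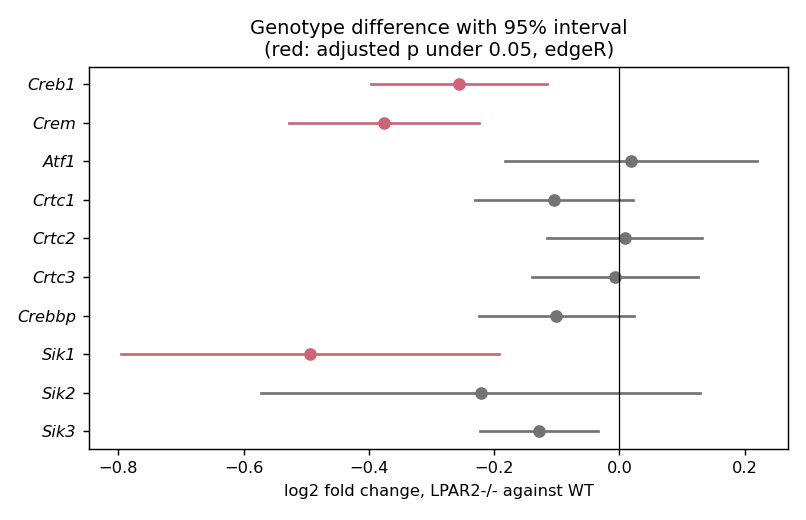
The log2 fold change of each of the 10 genes, LPAR2-/- against WT (x axis), is drawn as a point with its 95% interval from edgeR (n = 7 mice per group), in red where the adjusted p was under 0.05. Crem, Creb1 and Sik1 are red and lie left of 0, the interval of Sik3 also ends below 0, and the intervals of Atf1, Crtc2 and Crtc3 lie on both sides of it.

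Among the CREB family, Crem changed with the smallest p. Crem (chr18:3266354-3337589, minus strand, mm10, with 14 merged exons) encodes activators and repressors of CRE-driven transcription, among them the inducible repressor ICER, which starts at an internal promoter, and counts per gene do not separate these forms. It was counted at 10.7, 10.4, 12.4, 10.9, 11.5, 13.7 and 11.6 CPM in LPAR2-/- mice 1 to 7 and at 14, 17.4, 14.1, 15.6, 15.4, 15.3 and 13.6 CPM in WT mice 1 to 7. All but LPAR2-/- mouse 6 lay below the lowest WT mouse. The mean was 11.6 ± 1.15 CPM against 15.1 ± 1.28 CPM (SD, n = 7 each), or 77.1% of WT, with a log2 fold change of −0.38 (SE 0.0716, 95% interval −0.527 to −0.225, edgeR adjusted p = 0.00555). These values rest on 182 to 382 counts per library.

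Creb1 (chr1:64532804-64604548, plus strand, with 9 merged exons) encodes CREB itself, the main activator of the family in neurons. Its level was 54.2, 56.1, 51.7, 50.0, 56.6, 62.8 and 64.8 CPM in LPAR2-/- mice 1 to 7 and 59.0, 73.5, 67.0, 72.9, 67.4, 72.9 and 60.0 CPM in WT mice 1 to 7. The highest mice under the LPAR2-/- label, 6 and 7, lay above WT mice 1 and 7, and the other 5 lay below all WT mice. The mean of 56.6 ± 5.48 CPM was 83.7% of the WT mean of 67.5 ± 6.11 CPM (SD, n = 7 each), with a log2 fold change of −0.26 (SE 0.0664, 95% interval −0.397 to −0.116, edgeR adjusted p = 0.0291). The call was lost when LPAR2-/- mouse 1, 2, 4 or 5 or WT mouse 2, 4, 5 or 6 was left out (log2 fold changes between −0.257 and −0.226, edgeR adjusted p at most 0.071). Over all 14 such fits the log2 fold change ranged from −0.292 to −0.226. The call was also lost with mouse number added as a block (edgeR adjusted p = 0.0637). The study named Creb1 as lower on these same samples, so that its call is not independent evidence of that direction. Without LPAR2-/- mice 6 and 7 the log2 fold change was −0.33 (adjusted p = 0.00799).

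Atf1 (chr15:100227859-100261248, plus strand), the third member of the family, which pairs with CREB and CREM on the CRE, differed by less than its spread. Its range was 8.63 to 13.6 CPM under the LPAR2-/- label (median 11.1) and 9.58 to 12.3 CPM in WT (median 10.7), with a log2 fold change of 0.02 (95% interval −0.183 to 0.219, edgeR adjusted p = 0.941). The highest values of Atf1 were those of LPAR2-/- mice 6 and 7. Its share of the CREB family RNA per length was 33.0% ± 2.70 under the LPAR2-/- label and 28.5% ± 1.52 in WT, while that of Crem was 19.4% ± 1.82 and 21.9% ± 0.863 (SD, n = 7).

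Within a library, the ratio of 2 genes does not depend on the scaling of libraries. The log2 ratio of Creb1 to Atf1 counts was 2.37 ± 0.171 under the LPAR2-/- label and 2.64 ± 0.115 in WT, a difference of −0.27 (95% interval −0.42 to −0.10, exact two-sided permutation test over all arrangements of the mice, p = 0.00874, adjusted over 7 ratios p = 0.0306). The ratio of Creb1 to Crem differed by 0.12 (interval −0.01 to 0.25, adjusted p = 0.123 in the same exact test), and that of Creb1 to Crebbp by −0.15 (interval −0.36 to 0.05, adjusted p = 0.152). Creb1 was therefore lower relative to Atf1, and a difference relative to Crem was not established at this spread. With each mouse left out, the Creb1 to Atf1 difference passed in 8 of 14 cases, ranging from −0.32 to −0.236, and was lost without LPAR2-/- mouse 1, 2, 4 or 6 or WT mouse 4 or 5 (adjusted p at most 0.0571 in the exact test). With mouse number as a block it did not pass (permutation test, adjusted p = 0.0547).

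**Figure D2:**
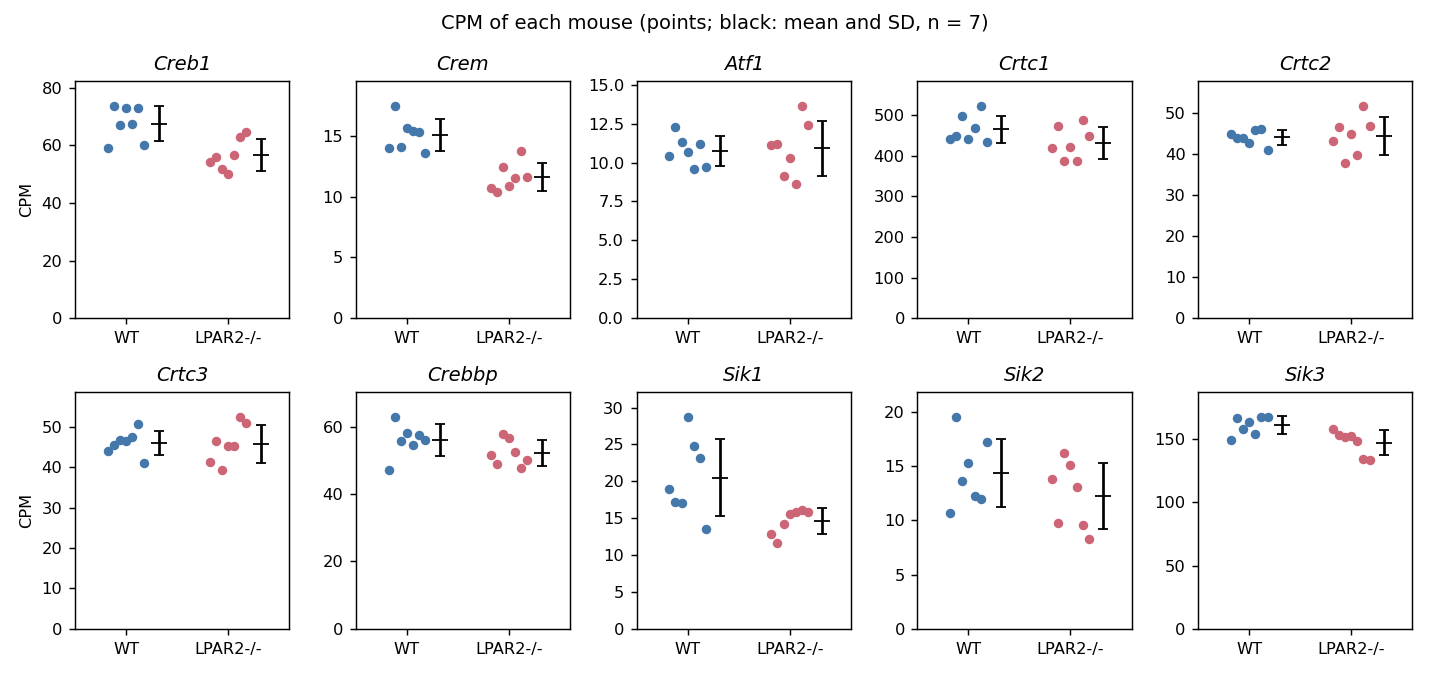
CPM (y axis, from 0) of the 10 genes is shown for each of 7 WT mice (blue) and 7 mice labelled LPAR2-/- (red), ordered by mouse number from left to right, with mean and SD in black. Most red points of Creb1 and Crem lie below the blue ones, Sik1 is widely spread among WT mice, from 13.6 to 28.7 CPM, and the 2 last red points, mice 6 and 7, are low for Sik2 and Sik3 and high for Crtc3.

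The CRTC coactivators did not pass the test. Crtc1 (chr8:70382358-70439573, minus strand, with 14 merged exons), which shuttles from synapse to nucleus, was counted at 418, 474, 387, 421, 388, 488 and 448 CPM in LPAR2-/- mice 1 to 7 and at 441, 449, 498, 440, 469, 521 and 433 CPM in WT mice 1 to 7. Of the mice labelled LPAR2-/-, 4 lay below the lowest WT mouse. The mean was 432 ± 39.7 CPM against 464 ± 33.6 CPM (SD, n = 7 each), with a log2 fold change of −0.10 (95% interval −0.230 to 0.0219, edgeR adjusted p = 0.321). Crtc2 (chr3:90254281-90264125), known from glucose production in liver, lay between 37.7 and 51.5 CPM under the LPAR2-/- label (median 44.8) and between 40.8 and 46.1 CPM in WT (median 43.9), with a log2 fold change of 0.01 (95% interval −0.116 to 0.132, edgeR adjusted p = 0.96). Crtc3 (chr7:80586632-80688877) lay between 39.2 and 52.4 CPM under the LPAR2-/- label (median 45.3) and between 41.0 and 50.7 CPM in WT (median 46.4), with a log2 fold change of −0.01 (95% interval −0.139 to 0.125, edgeR adjusted p = 0.968).

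The proportion of Crtc1 to Crtc2 differed although neither gene passed on its own. Their log2 ratio was 3.28 ± 0.0497 under the LPAR2-/- label and 3.39 ± 0.0777 in WT, a difference of −0.11 (95% interval −0.18 to −0.04, exact two-sided permutation test, p = 0.00524, adjusted over 7 ratios p = 0.0306). This is 0.927 of the WT ratio. With each mouse left out the difference ranged from −0.127 to −0.0921 and passed in 9 of 14 cases, all but those without LPAR2-/- mouse 1, 4 or 6 or WT mouse 4 or 5. With mouse number as a block it did not pass (permutation test, adjusted p = 0.0547). The ratio of Crtc1 to Crtc3 differed by −0.10 (interval −0.19 to 0.0, adjusted p = 0.12 in the same exact test).

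Crtc1 lies on the same chromosome as Lpar2, 551.3 kb beyond its end (chr8:69822565-69831102), and 21 genes tested start between them, 7 of which passed the threshold. Within 10 Mb of Lpar2, Lpar2 itself included, 41 of 155 genes passed (26.5%), beside 968 of 14742 elsewhere (6.57%). Within 5 Mb the share was 32.5%, and within 20 Mb it was 25.1%. For Crtc1, the Lpar2 genotype given by the label and any difference in the linked sequence between the colonies cannot be told apart in this design. None of the other 9 genes lies on chromosome 8.

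**Figure D3:**
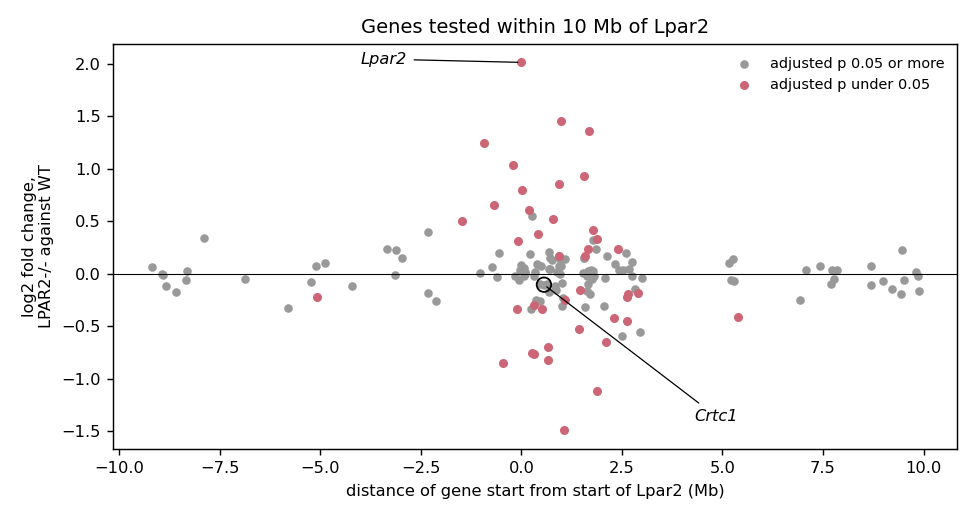
Each point is a gene tested within 10 Mb of Lpar2, by the distance of its start from that of Lpar2 (x axis, Mb) and its log2 fold change, LPAR2-/- against WT (y axis). The 41 genes past the threshold (red) crowd around Lpar2, which is 1 of them at 2.01, and Crtc1 (circled) sits among them at −0.10 without passing.

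Crebbp (chr16:4084048-4213404, minus strand, with 31 merged exons), the acetyltransferase that binds phosphorylated CREB, was counted at 47.6 to 57.8 CPM under the LPAR2-/- label (median 51.6) and at 47.0 to 62.8 CPM in WT (median 56.1). No mouse labelled LPAR2-/- lay below the lowest WT mouse. The means were 52.2 ± 3.8 CPM and 56.0 ± 4.77 CPM (SD, n = 7 each), with a log2 fold change of −0.10 (95% interval −0.225 to 0.0226, edgeR adjusted p = 0.328).

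Sik1 (chr17:31844250-31855792, minus strand, with 14 merged exons) encodes the kinase of the family that is induced by cAMP and by neuronal activity. It was counted at 12.8, 11.6, 14.2, 15.6, 15.9, 16.1 and 15.9 CPM in LPAR2-/- mice 1 to 7 and at 19, 17.2, 17.1, 28.7, 24.8, 23.2 and 13.6 CPM in WT mice 1 to 7. WT mouse 7 lay among the mice labelled LPAR2-/-, and the other 6 WT mice lay above all of them. The mean was 14.6 ± 1.78 CPM against 20.5 ± 5.23 CPM (SD, n = 7 each), or 71.0% of WT, with a log2 fold change of −0.49 (SE 0.142, 95% interval −0.796 to −0.192, edgeR adjusted p = 0.0491). This call lies at the threshold. It was kept only without WT mouse 1 or WT mouse 7 among the 14 leave-one-out fits, where the log2 fold change ranged from −0.571 to −0.395 and the adjusted p reached 0.105. It was lost in limma-voom (−0.47, adjusted p = 0.061), with upper quartile scaling (adjusted p = 0.0556) and without the filter on low counts (adjusted p = 0.0633).

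Sik3 (chr9:46012820-46224194, plus strand), the most abundant SIK in these libraries, was counted at 158, 153, 151, 152, 148, 134 and 133 CPM in LPAR2-/- mice 1 to 7 and at 149, 166, 158, 163, 154, 167 and 167 CPM in WT mice 1 to 7. The values under the LPAR2-/- label were lowest in mice 6 and 7, and all 7 lay below the WT median. The means of 147 ± 9.75 CPM and 161 ± 7.10 CPM (SD, n = 7 each) gave a log2 fold change of −0.13 (95% interval −0.222 to −0.0348, unadjusted p = 0.0102, edgeR adjusted p = 0.0953). Without LPAR2-/- mice 6 and 7 the log2 fold change was −0.07 (edgeR adjusted p = 0.244). Sik2 (chr9:50892801-51009073, minus strand), which restrains CRTC1 in neurons, was counted at 13.8, 9.78, 16.2, 15.1, 13.1, 9.55 and 8.26 CPM in LPAR2-/- mice 1 to 7 and at 10.7, 19.5, 13.6, 15.3, 12.2, 12.0 and 17.2 CPM in WT mice 1 to 7. The groups overlapped over most of their range, and the log2 fold change of −0.22 had a 95% interval of −0.572 to 0.129 (edgeR adjusted p = 0.456). It ranged from −0.301 to −0.131 in the leave-one-out fits, with the smallest size without WT mouse 2, and was −0.08 without LPAR2-/- mice 6 and 7. The log2 ratio of Sik1 to Sik3 differed by −0.33 (interval −0.70 to 0.06) and that of Sik1 to Sik2 by −0.22 (interval −0.81 to 0.36), with adjusted p-values of 0.123 and 0.415 in the exact permutation test.

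Fos, an activity-induced gene with CREB sites in its promoter, was used to order the mice within each genotype. Fos itself was counted at 1.95 to 5.12 CPM under the LPAR2-/- label (median 3.81) and at 5.13 to 22.6 CPM in WT (median 16.1), with a log2 fold change of −1.86 (edgeR adjusted p = 0.00781) and no overlap. Among the 7 WT mice, Sik1 and Fos had r = 0.844 and rho = 0.821 on the log2 scale (exact permutation over all pairings of mice, p = 0.0226 and 0.0341). Creb1 had r = 0.797 and rho = 0.786 (exact p = 0.0399 and 0.048) and Crem had r = 0.773 and rho = 0.786 (exact p = 0.0435 and 0.048). After adjustment over the 20 relations computed, none passed (lowest adjusted p 0.29 for r and 0.32 for rho). Without the 2 WT mice farthest from the median of Fos, r was 0.63 for Sik1, 0.923 for Creb1 and 0.539 for Crem. Among the mice labelled LPAR2-/-, whose Fos values were lower (SD of log2 CPM 0.558, against 0.842 in WT), r was 0.0636 for Sik1, −0.118 for Creb1 and −0.373 for Crem. Without the 2 farthest mice of that group these became 0.00551, 0.432 and −0.473, and r was 0.94 for Atf1 and 0.932 for Crtc2 over the 5 that remained, so that these values depend on 2 mice. The difference between the genotypes in r was not tested.

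**Figure D4:**
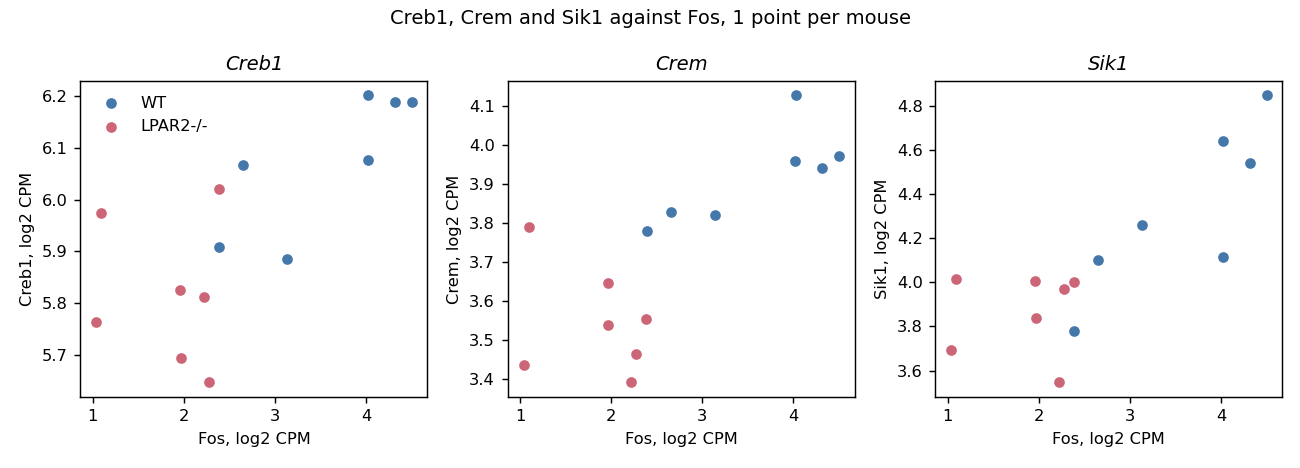
Log2 CPM of Creb1, Crem and Sik1 (y axes, not from 0) is plotted against log2 CPM of Fos (x axes), with 1 point per mouse, WT in blue and LPAR2-/- in red. For Creb1, Crem and Sik1 in this order, r was 0.797, 0.773 and 0.844 over the 7 WT mice and −0.118, −0.373 and 0.0636 over the 7 mice labelled LPAR2-/-, all of which lie at lower Fos, and none passed adjustment over 20 relations.

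Some of the 10 genes also varied together between mice of one genotype. After the genotype means were removed, 10 of the 45 pairs had a correlation over 14 mice that passed adjustment over the 45 (permutation within genotype, 100000 draws), 8 of them positive and 2 negative, and neither Crem nor Sik1 was in any of them. An r of at least 0.699 in size, the weakest among these 10, was reached by 22.2% of the 45 pairs and by 3.88% of all pairs of the 14897 genes tested. These relations were computed after the values had been seen. The 3 CRTC genes rose and fell together: r was 0.844 and rho 0.890 for Crtc1 and Crtc2 (permutation p = 0.0004 and 0.00016, adjusted p = 0.0126 and 0.0072), 0.821 and 0.837 for Crtc2 and Crtc3 (permutation p = 0.00212 and 0.00085, adjusted p = 0.0263 and 0.0103), and 0.774 and 0.837 for Crtc1 and Crtc3 (permutation p = 0.00292 and 0.00092, adjusted p = 0.0263 and 0.0103). Without the 2 mice farthest from the median, r was 0.799, 0.632 and 0.631 in the same order. Within WT mice alone it was 0.647, 0.798 and 0.812, and under the LPAR2-/- label 0.949, 0.844 and 0.761.

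Sik2 rose with Crebbp, with r = 0.806 and rho = 0.842 (permutation p = 0.00056 and 0.00066, adjusted p = 0.0126 and 0.0103), and r was 0.768 without the 2 farthest mice, 0.776 within WT and 0.867 under the LPAR2-/- label. Sik2 fell as Crtc2 rose, with r = −0.703 and rho = −0.776 (permutation p = 0.00833 and 0.00402, adjusted p = 0.0469 and 0.0362), and r was −0.636 without the 2 farthest mice, −0.689 within WT and −0.754 under the LPAR2-/- label. Sik2 and Crtc2 thus moved in opposite directions over mice in both groups. This did not extend to every SIK and CRTC pair: r with Crtc3 was 0.494 for Sik1 and −0.581 for Sik3, neither past adjustment. The other 5 pairs passed for r only, with an adjusted p of rho above 0.05. These were Creb1 with Crtc3 (r = 0.758), Atf1 with Crtc2 (0.781), Atf1 with Crtc1 (0.709), Sik2 with Sik3 (0.72) and Sik2 with Crtc3 (−0.699), at permutation p-values between 0.00281 and 0.0108 and adjusted p-values between 0.0263 and 0.0486. In the same order rho was 0.67, 0.64, 0.714, 0.574 and −0.697, and r without the 2 farthest mice was 0.735, 0.59, 0.521, 0.634 and −0.598. Within WT mice r was 0.155 for Atf1 with Crtc2 and 0.295 for Atf1 with Crtc1, and under the LPAR2-/- label 0.927 and 0.897. Without LPAR2-/- mice 6 and 7, r was 0.820 for Sik2 with Crebbp, −0.61 for Sik2 with Crtc2, 0.78 for Crtc1 with Crtc2, 0.691 for Crtc2 with Crtc3, 0.694 for Crtc1 with Crtc3 and 0.584 for Creb1 with Crtc3. In the same 12 mice r was 0.506 for Sik2 with Sik3, −0.516 for Sik2 with Crtc3, 0.584 for Atf1 with Crtc2 and 0.569 for Atf1 with Crtc1.

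Libraries also differed in how their deviation from the genotype mean correlated, across genes, with the genomic span of the gene. This correlation ran from −0.12 in WT mouse 1, which had the lowest WT value of Sik2, to 0.135 in WT mouse 2, which had the highest. Under the LPAR2-/- label it ran from −0.0881 in mouse 6, at 9.55 CPM of Sik2, to 0.0965 in mouse 3, at 16.2 CPM, but it was −0.0451 in mouse 4, at 15.1 CPM, and −0.0395 in mouse 7, which had the lowest Sik2. LPAR2-/- mice 6 and 7 also had the lowest totals of their group, at 16663752 and 15434620 counts, and their libraries were the 2 most alike within a genotype. The part of these library properties in the relations between the genes was not tested.

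**Figure D5:**
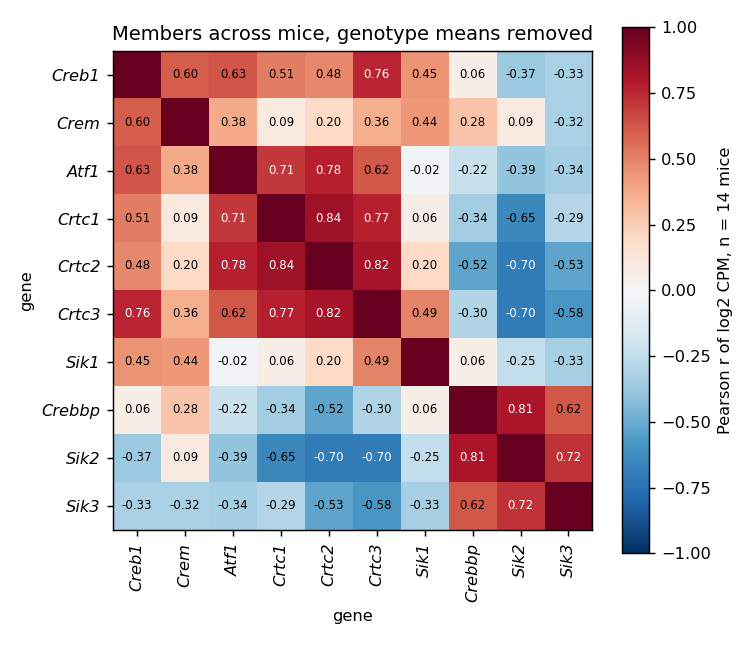
Each cell gives Pearson's r between 2 of the 10 genes over 14 mice, in log2 CPM with the genotype means removed, from blue (−1) to red (1). The 3 CRTC genes form a red block with r from 0.774 to 0.844, Crebbp, Sik2 and Sik3 form another, and the cells between Sik2 and the CRTC genes are blue.

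The genes whose values over the 14 mice were most like those of each member were found in the same way, as a description with no test. Sik2 varied most like Hdac4 (r = 0.962, n = 14 mice), a histone deacetylase of the class that SIK kinases phosphorylate, and Asxl1 (0.959). Creb1 varied most like Top1 (0.953), which encodes a topoisomerase, Arhgap12 (0.953) and Sfpq (0.951), an RNA-binding protein. Sik1 varied most like Trip6 (0.952), Ppp1r3c (0.915), a glycogen-targeting subunit of a phosphatase, and Tiparp (0.907). Crtc1 varied most like Fbxo41 (0.967) and Synpo (0.946), an actin-associated protein of dendritic spines, and Crtc2 most like Taf1c (0.968). For Crem the highest r was lower, at 0.898 for Zbtb3. Each of these values is among the 3 highest of 14897 genes over the same 14 libraries, whose depth and composition the genes share.

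Other genes of the pathway were taken from 5 lists, written with earlier results of these data known. Among 32 genes of the kinases that lead to CREB, with their regulatory subunits, the PKA inhibitors and the catalytic subunits of the phosphatase PP1, which acts against them, 3 passed, all higher under the LPAR2-/- label (9.38%, beside 6.77% of all genes), and the median log2 fold change was 0.031. Mapk3, which encodes ERK1, lay between 264 and 324 CPM under the LPAR2-/- label and between 223 and 260 CPM in WT without overlap, with a log2 fold change of 0.29 (edgeR adjusted p = 0.00731). Camk2g, a subunit of CaMKII, differed by 0.21 (adjusted p = 0.0249), and Prkaca, the catalytic subunit of PKA, by 0.19 (edgeR adjusted p = 0.0257). The most abundant gene of the list, Camk2a, had a log2 fold change of −0.0041 (edgeR adjusted p = 0.98). Only 1 of the 32 passed without LPAR2-/- mouse 1, without WT mouse 2 or without WT mouse 4. The same number passed without LPAR2-/- mice 6 and 7.

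Of 22 genes of cAMP synthesis and breakdown (adenylate cyclases, the G protein subunits Gnas and Gnal that stimulate them, and phosphodiesterases), none passed in edgeR, DESeq2 or limma-voom, and 4 had an unadjusted p under 0.05, fewer than the 22.4% of all genes would give. Adcy1, the most abundant of them, had a log2 fold change of 0.03 (edgeR adjusted p = 0.888). Without WT mouse 1, 1 of them passed, and without LPAR2-/- mice 6 and 7, 2 did. A list of 27 genes held regulators of SIK or CRTC proteins, SIK substrates, and AMPK with kinases related to it. Of these 27, 1 passed, a share of 3.70% that lies below the 6.77% of all genes. It was Nuak1, one of the kinases related to AMPK, which fell by 0.38 on the log2 scale (edgeR adjusted p = 0.0165) from 63.2 ± 9.06 to 48.4 ± 4.74 CPM. Ppp3ca, the calcineurin subunit with the highest level of that list, had a log2 fold change of 0.01 (edgeR adjusted p = 0.924). Of that list, 2 passed without LPAR2-/- mouse 3, LPAR2-/- mouse 6 or WT mouse 1, and also without LPAR2-/- mice 6 and 7 together.

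Of 18 further bZIP factors, acetyltransferases and other CREB partners, 1 passed (5.56%, beside 6.77% of all genes), Atf3, an inducible factor of the stress response, at 1.49 ± 0.490 CPM against 2.60 ± 0.868 CPM (log2 fold change −0.82, edgeR adjusted p = 0.0479). Sfpq had a log2 fold change of −0.32 (edgeR adjusted p = 0.0928). The count for this list was 0 or 2 in 12 of 14 leave-one-out fits, all but those without LPAR2-/- mouse 2 and without WT mouse 1. It was 2 without LPAR2-/- mice 6 and 7 together.

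Of 30 genes known as CRE targets, 26 had a log2 fold change below 0 (86.7%, beside 48.9% of all genes), with a median log2 fold change of −0.20. This list was also written with earlier results of these data known, so its shares are not independent evidence. Of all 30 genes, 5 passed, all lower (16.7%, beside 3.46% of all genes that passed and were lower). They were Nptx2, a pentraxin that clusters AMPA receptors (−0.72, edgeR adjusted p = 0.0101), Nfil3, a transcriptional repressor (−0.56, adjusted p = 0.0142), Chga, a granin of dense-core vesicles (−0.24, adjusted p = 0.0216), Irs2, an adaptor of insulin signalling (−0.31, adjusted p = 0.0257), and Dusp1, a phosphatase of MAP kinases (−0.50, adjusted p = 0.0492). Scg2, the most abundant gene of the list not past the threshold, had a log2 fold change of −0.04 (edgeR adjusted p = 0.799). DESeq2 called 7 of the 30 and limma-voom 4, and 3 passed without LPAR2-/- mouse 1 or without WT mouse 2, 4, 5 or 6, as well as without LPAR2-/- mice 6 and 7. A further list of 8 activity-related genes named by the study, which chose them on these samples and is not independent evidence, passed in 8 of 8, all lower (median −1.06 on the log2 scale), with 7 calls in limma-voom and 7 to 8 in the leave-one-out fits. Its members with the smallest p were Fosb (−1.46), Fosl2 (−0.60), Nr4a2 (−0.63), Egr2 (−2.50), Npas4 (−1.19) and Fos (−1.86), all in edgeR.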

How the data were processed

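After trimming (cutadapt 1.18), the authors mapped reads to mm10 by STAR. Exonic reads on the reverse strand were assigned to genes by featureCounts 1.6.3, and ambiguous or multiply mapped reads were dropped. These deposited counts, of 14 mice with 1 library each, were used without change. A deposited table of the same counts scaled by DESeq2 1.22.2 size factors was not used. Genes were filtered by filterByExpr (14897 of 24421 kept), normalized by TMM and tested with edgeR 4.0.16 (robust quasi-likelihood F test, no covariates, R 4.3.3), with p-values adjusted over all genes. Log2 CPM used a prior count of 2. Alternatives were DESeq2 1.42.0, limma-voom (limma 3.58.1), DESeq2 size factors, the upper quartile, no filter, at least 10 counts in every library, a replicate block and each mouse left out. The procedures were tested on simulated data. Library totals limit the precision, and intervals over mice include counting error. The 2 libraries most alike within a genotype, those of LPAR2-/- mice 6 and 7, differed by more than sampling noise (chi-square per degree of freedom 3.41). The most unlike were those of LPAR2-/- mice 3 and 6, at 34.06. The genes described, the lists and the alternatives were chosen with earlier results of these data known, and the relations between members and the removal of LPAR2-/- mice 6 and 7 after the values had been seen. Genes to be named were the members, Lpar2, Fos, up to 6 list genes past the threshold by smallest p, the most abundant list gene not past it and the genes most correlated with each member.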

Additional observations from a re-analysis of the deposited data

How the results depend on the processing

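Crem kept its direction and call under every alternative run. Creb1 lost its call with the replicate block (log2 fold change −0.257, adjusted p = 0.0637), and Sik1 with limma-voom (−0.468), the upper quartile (−0.473) and no filter (−0.494). Whether same-numbered mice form pairs was checked: their correlations after removal of the genotype means ranged from −0.334 to 0.311, with 3 of 7 above 0.1, so the numbers were not treated as pairs. With the block, 314 genes were higher and 272 lower, 0 related factors, 3 CRE targets and 6 of the 8 activity genes passed, and the adjusted p of both ratios that had passed became 0.0547. The list of related factors had 2 calls in DESeq2 and 0 with the upper quartile, and that of SIK and CRTC regulators 2 with the upper quartile, which moved the share of higher calls from 49.0% to 62.0%. Without the filter, or with at least 10 counts in every library, 7 of the 8 activity genes passed. The causes were not tested.

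With 1 mouse left out, log2 fold changes ranged from −0.292 to −0.226 for Creb1, from −0.419 to −0.338 for Crem and from −0.571 to −0.395 for Sik1. Passing were 1 to 3 members, 275 to 660 higher and 292 to 725 lower genes, 1 to 4 kinases, 0 to 1 cAMP enzymes, 1 to 2 genes of the SIK and CRTC list, 0 to 2 related factors and 3 to 6 CRE targets. The ratio of Creb1 to Crem (0.155, adjusted p = 0.0394) passed without LPAR2-/- mouse 3, and that of Sik1 to Sik3 (−0.429, adjusted p = 0.049) without WT mouse 7. Counts per library went down to 129 for Sik2 and 164 for Atf1.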
